A study of Mus musculus with 32 samples.

Results

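The regions described here are 390 annotated 3′ UTR intervals of mouse amygdala mRNAs that were read deeply and yet carried almost no more T-to-C conversions in 4sU libraries than in DMSO libraries. They were chosen from 23996 RefSeq 3′ UTR intervals by summing covered T positions and T-to-C conversions over 14 libraries from 4sU-injected mice and over 12 from DMSO-injected mice. An interval was taken if it had at least 500000 covered T positions on each side, a 4sU rate less than 0.005 percentage points above the DMSO rate, and a DMSO rate below 0.06%. The depth requirement left 1604 abundant intervals of 1382 genes, of which 390, or 24.3%, met the other limits; the remaining 1214 are called the other abundant intervals. The 390 intervals belong to 343 genes. In 38 of these genes several intervals were chosen, 85 in all, and each of the 85 overlaps another, so that they share reads; merging overlaps leaves 343 separate regions. The rate is conversions divided by covered T positions, and the excess is the 4sU rate minus the DMSO rate.

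All mice were wild type. The amygdala was injected stereotaxically with 4sU at 100 mM in DMSO or with the solvent, and 24 h later RNA was extracted from both sides and alkylated. Acute stress was represented by 5 4sU and 5 DMSO libraries, chronic stress by 4 4sU and 3 DMSO libraries, and baseline by 5 4sU and 4 DMSO libraries. The labels do not give the stress protocol, age or sex. Auditory cortex gave 3 libraries with and 3 without 4sU, which played no part in choosing the intervals. The labels do not say which animals the replicates came from, and a p-value here reflects no more than the variation among the samples sequenced.

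4-thiouridine (4sU) is a uridine analogue that cells build into RNA as it is transcribed. Alkylation of the incorporated base makes reverse transcriptase read it as C, so a transcript made during the labelling period shows T-to-C conversions. RNA made before or after that period, or made where no analogue arrived, shows the sequencing background measured in solvent-injected tissue. The 3′ UTR follows the stop codon and is the part of an mRNA where microRNAs and many RNA-binding proteins act on its stability and translation; in brain it is often long.

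Libraries held 16150316 to 21228741 exon counts. The file headers number the libraries in 2 series, one of 10 libraries (acute and baseline 4sU) and one of 16 (all DMSO and chronic 4sU), and the share of all reads that fell in 3′ UTR intervals differed along the same line, 16.1% to 17.4% in the 10 against 18.2% to 23.9% in the 16. What the numbering stands for is not stated. Excess at baseline and after acute stress therefore compares libraries of different numbering, while excess after chronic stress does not. In 4 DMSO libraries, acute replicates 1, 3 and 4 and chronic replicate 1, the mean of 10 glutamatergic neuron markers was more than 1 log2 unit below the median of all libraries (3.76 to 4.61, against 5.09 to 6.26 in the other libraries, as log2(CPM + 1)). Fewer cells of a type and less RNA per cell cannot be told apart in bulk tissue.

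Among the 390 intervals the 4sU rate had a median of 0.0249% and the DMSO rate a median of 0.0231%. The other abundant intervals had a median of 0.0489% in 4sU libraries and, again, 0.0231% in DMSO libraries. The median excess was 0.00196 percentage points, with a range of -0.0149 to 0.00499, against 0.0251 in the other abundant intervals. These values chose the intervals and are given without a test. In 102 of the 390 the 4sU rate lay below the DMSO rate and in 288 above it. An interval rested on 92 to 1472 conversions in 4sU libraries and on 97 to 1075 in DMSO libraries, and the median counting error of the excess was 0.00249 percentage points. With 95% intervals from counting error alone, 113 of the 390 had an upper bound below 0.005, 35 had a lower bound above 0 and 9 had an upper bound below 0. The highest upper bound among the 390 was 0.0128. Of the 1214 other abundant intervals, 958 had a lower bound above 0.005. These bounds, here and for single genes below, rest on the values that chose the intervals. They leave out variation between libraries and are not a test.

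**Figure D1:**
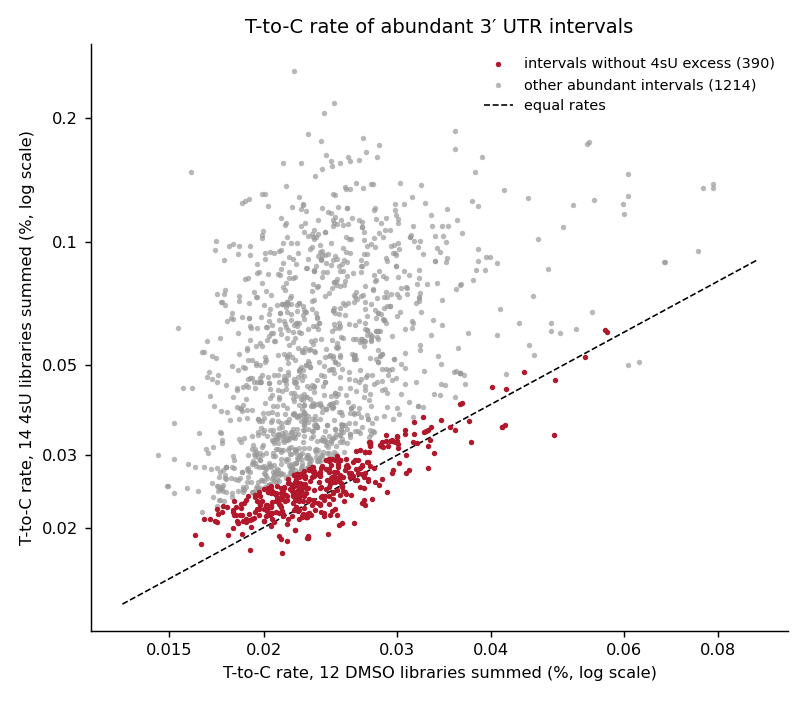
T-to-C conversion rate of each abundant 3′ UTR interval in the summed 14 4sU libraries (vertical axis, %, log scale) against the summed 12 DMSO libraries (horizontal axis, %, log scale). The 390 intervals without 4sU excess (red) lie along the dashed line of equal rates, and the 1214 other abundant intervals (grey) spread upward from it at similar DMSO rates.

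Summed over the 390 intervals, the rate of single libraries was 0.0225% to 0.0319% with 4sU (mean 0.0263% ± 0.0027, SD, n = 14) and 0.0218% to 0.0299% with DMSO (mean 0.0242% ± 0.0023, SD, n = 12). The ranges overlap. In the same libraries the other abundant intervals had 0.0511% to 0.107% with 4sU and 0.0218% to 0.0309% with DMSO, which do not overlap. Chronic 4sU replicate 4 had the highest rate in both sets of intervals, 0.0319% and 0.107%. Baseline 4sU replicate 1, by contrast, had the second lowest 4sU rate in the intervals without excess (0.0229%) and the fourth highest of the 14 in the other abundant intervals (0.0761%).

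**Figure D2:**
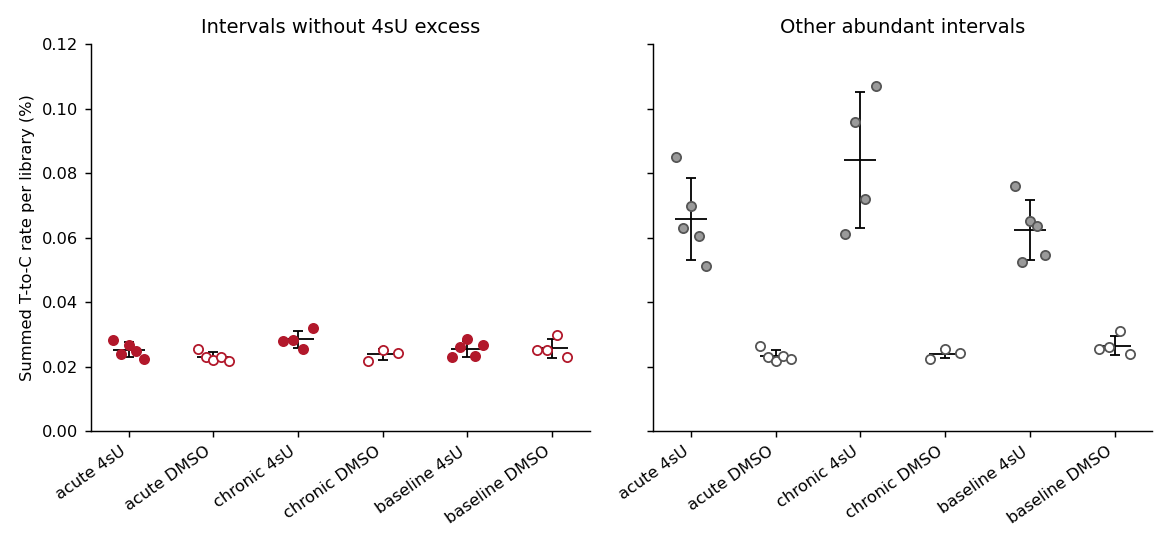
Summed T-to-C rate per library (vertical axis, %) in the 390 intervals without 4sU excess (left) and the 1214 other abundant intervals (right), by state and injection; points are libraries (filled 4sU, open DMSO), lines the group mean and bars the SD. On the left, 4sU libraries span 0.0225% to 0.0319% and DMSO libraries 0.0218% to 0.0299%; on the right every 4sU library lies above every DMSO library.

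After acute stress it averaged 0.0253% ± 0.0023 with 4sU and 0.0231% ± 0.0014 with DMSO (SD, n = 5 each). After chronic stress it averaged 0.0285% ± 0.0026 with 4sU (SD, n = 4) and 0.0238% ± 0.0018 with DMSO (SD, n = 3). At baseline it averaged 0.0256% ± 0.0025 with 4sU (SD, n = 5) and 0.0258% ± 0.0030 with DMSO (SD, n = 4). The 4 chronic 4sU libraries had 0.0256% to 0.0319% and the 3 chronic DMSO libraries 0.0218% to 0.0252%, the only state in which the summed rates of the injections did not overlap. Per interval, the median excess was 0.0015 percentage points after acute stress, 0.0042 after chronic stress and -0.0008 at baseline. It lay below 0.005 in 294 of the 390 intervals after acute stress, in 217 after chronic stress, in 341 at baseline and in 127 in all 3 states. Of the 1214 other abundant intervals, 114 lay below 0.005 after acute stress, 63 after chronic stress, 237 at baseline and 0 in all 3 states. The rule limited the excess summed over states, and a single state holds fewer conversions than the sum, so its counting error is larger.

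Within the header series that holds all DMSO libraries, the chronic 4sU libraries can be set against the 12 DMSO libraries. There the median excess of the 390 intervals was 0.0037 percentage points, with 232 of 390 below 0.005, and that of the other abundant intervals was 0.036, with 55 of 1214 below it. The state and the amount of label taken up cannot be told apart in this contrast. Gria1, which encodes an AMPA receptor subunit, had an excess of 0.0149 in it and left the limit. Pde10a, a cyclic nucleotide phosphodiesterase abundant in striatal neurons, had -0.0025.

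Intervals just inside the limit were those of Pip4k2b, Adgrl3, Socs7 and Mosmo, with an excess of 0.00497 to 0.00499 percentage points. Those just outside were Spred1, Dlgap1, Strip2 and Pank3, with 0.00501 to 0.00506. Each had a counting error of 0.0017 to 0.00274 percentage points, so the limit divides intervals that counting cannot separate. Both intervals of Actr1a, a subunit of the dynactin complex, were left out by their DMSO rates of 0.0608% and 0.0628% alone. Fscn1 and Pura were just deep enough, with 500607 and 501698 covered T positions on the shallower side, and Kcnq5, with 498502, was not.

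Among the deepest intervals without excess were 3 overlapping ones of Celf2, a splicing and RNA-stability factor. The longest of them spans chr2:6539699-6547084 on the minus strand (mm10). Its 4sU rates had a lowest, median and highest value of 0.0142%, 0.0256% and 0.0322%, against 0.0179%, 0.0213% and 0.0281% in DMSO libraries. The 4sU range reaches past the DMSO range on both ends. The excess was 0.00247 percentage points, with a 95% counting interval of 0.000216 to 0.00472, which lies above 0. Pde10a (chr17:8981657-8986647, plus strand) had 781 conversions in 3561782 covered T positions with 4sU and 866 in 3512483 with DMSO. Its rates were 0.0169%, 0.0225% and 0.0315% with 4sU and 0.0182%, 0.0245% and 0.0315% with DMSO, with near-complete overlap. Its excess was -0.00273, with a counting interval of -0.00498 to -0.000478. Arpp21, a cAMP-regulated phosphoprotein of striatal and cortical neurons (chr9:112180032-112182810, minus strand), had 0.0143%, 0.0233% and 0.0352% with 4sU and 0.0139%, 0.0204% and 0.0251% with DMSO. Its excess was 0.00293, with a counting interval of 0.000566 to 0.0053.

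Ddx5, a DEAD-box RNA helicase of splicing and transcription (chr11:106780355-106781848, minus strand), had 512 conversions in 2500329 covered T positions with 4sU and 580 in 3134909 with DMSO. Its excess was 0.00198 percentage points, with a 95% counting interval of -0.00035 to 0.0043. Phactr1, a regulator of protein phosphatase 1 and actin, had 0.00116, Gas7, a neurite outgrowth protein, 0.00247, and Enc1, an actin-binding kelch protein, 0.00261. Lrrc7, the postsynaptic scaffold densin, had 0.0014 in the longer of its 2 intervals. The counting interval of Enc1, 4.54e-05 to 0.00516, lay above 0, and those of Phactr1, Gas7 and Lrrc7 spanned 0. Rgs4, which speeds the inactivation of G proteins, had 0.0049 with a counting interval of 0.00221 to 0.0076. Its rates by library overlapped, at 0.0181% to 0.0379% with 4sU and 0.0174% to 0.0292% with DMSO.

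The lowest excess belonged to Fscn1, the actin-bundling protein fascin (chr5:142972099-142973188, plus strand), with 0.0336% in 4sU libraries and 0.0485% in DMSO libraries. Its 4sU rates were 0.0211%, 0.0324% and 0.0492%, against 0.0348%, 0.0452% and 0.0765% with DMSO. The excess was -0.0149 percentage points with a counting interval of -0.0227 to -0.00709. Celf5, a relative of Celf2, followed with -0.00604 in the longest of 3 intervals and Epn2, an endocytic adaptor, with -0.00585. The DMSO rate of Fscn1 and that of Celf5, 0.0413%, were both among the highest of the 390 intervals, of which 9 in 10 had no more than 0.0301%.

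One gene held both kinds of interval far apart. Ntrk2 encodes TrkB, the receptor of brain-derived neurotrophic factor; its full-length form carries a kinase, and a truncated form without the kinase ends upstream in the gene and is known from astrocytes. The downstream interval (chr13:59128354-59133969, plus strand, 5616 bases) is among the 390, with 397 conversions in 1495361 covered T positions with 4sU and 340 in 1371667 with DMSO. The upstream interval (chr13:58932061-58937030, 4970 bases) had 3422 in 2546156 with 4sU and 613 in 2384746 with DMSO. Rates of the downstream interval were 0.0128%, 0.0256% and 0.0432% (lowest, median, highest) with 4sU and 0.0125%, 0.0236% and 0.0505% with DMSO. Rates of the upstream interval were 0.0899%, 0.121% and 0.22% with 4sU and 0.0137%, 0.0247% and 0.0409% with DMSO. In the upstream interval every 4sU library stood above every DMSO library, whereas in the downstream interval the ranges overlapped almost fully. The excess was 0.00176 percentage points downstream and 0.109 upstream, in the same libraries and at T contents of 28.3% and 28.6%. Ntrk2 was singled out after its values were seen.

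**Figure D3:**
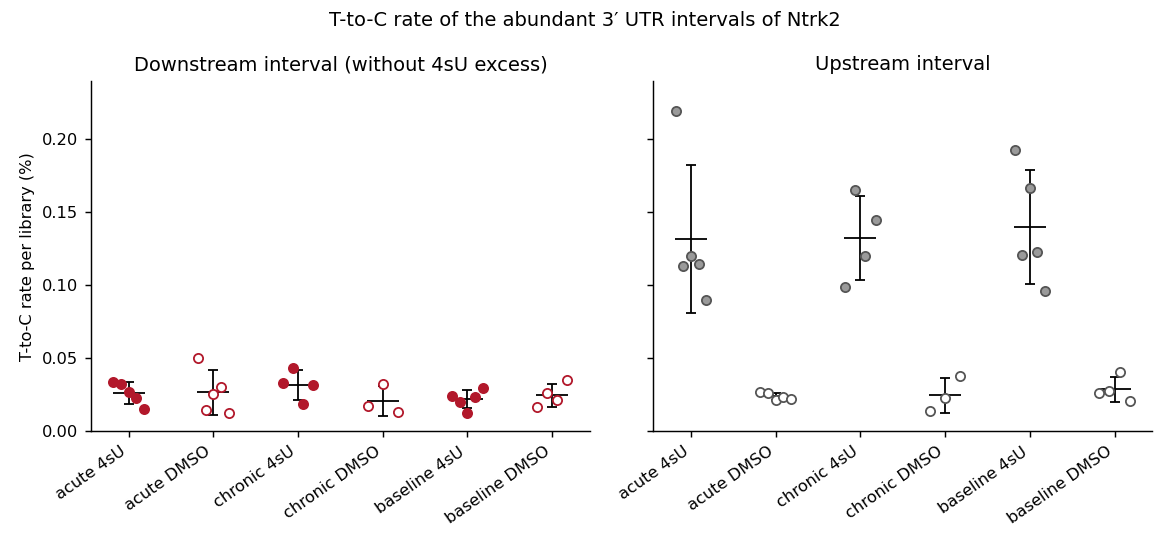
T-to-C rate per library (vertical axis, %) of the downstream Ntrk2 interval, which is without 4sU excess (left), and of the upstream Ntrk2 interval (right), by state and injection; points are libraries (filled 4sU, open DMSO), lines the group mean and bars the SD. The upstream interval lies at 0.0899% to 0.22% in 4sU libraries and at 0.0137% to 0.0409% in DMSO libraries, and the downstream interval does not separate the injections.

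In 5 other genes an interval without excess stood beside another abundant interval. In Erc2, Grik2, Rc3h2 and Sipa1l1 the intervals overlapped and fell on either side of the limit by small amounts, as in Grik2, a kainate receptor subunit, with 0.00365 and 0.00572 percentage points. Ddx17, a paralogue of Ddx5, had separate intervals with 0.00333 (chr15:79527696-79530010, minus strand) and 0.00881 (chr15:79534661-79535941).

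Several families of RNA-binding and RNA-processing proteins were represented. Of the abundant genes, 3 of 4 CELF proteins (Celf1, Celf2 and Celf5, but not Celf4 at 0.0491 percentage points), both ELAV-like proteins (Elavl1 and Elavl3), which bind AU-rich 3′ UTRs, both CPEB translation regulators (Cpeb2 and Cpeb4), Ago1 and Tnrc6b of the microRNA machinery, 3 of 4 DEAD-box helicases (Ddx5, Ddx6 and Ddx17) and 3 of 4 cleavage and polyadenylation factors (Cpsf6, Cpsf7 and Papola) had an interval without excess. So did 3 of 4 importins, which carry proteins into the nucleus, and 6 of 12 zinc finger proteins of the Zfp, Zscan and Zkscan groups. Among splicing factors and other RNA-binding proteins, 2 of 8 hnRNP genes (Hnrnpdl and Hnrnpul2; median excess of the 8 genes 0.0133), 2 of 4 SR splicing factors (Srsf6 and Srsf7) and 1 of 2 RBFOX genes (Rbfox2) did. The share over all abundant genes was 343 of 1382. These families were formed after the 390 intervals were known, and their counts carry no test. Families are small: several have 2 abundant genes.

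Receptors and second-messenger enzymes of neurons were also present. Of 7 abundant glutamate receptor genes 5 had an interval without excess (Gria1, Grik2, Grin2a, Grin2b and Grm5), and Gria2 and Gria3 did not. On the wider postsynaptic and glutamate receptor list 5 of 16 abundant genes did, with a median excess of 0.0215. On the calcium and calmodulin list 2 of 19 did, Prkca and Ppp1r1b, with a median of 0.0468. Of 2 adenylate cyclases Adcy5 did and Adcy1, at 0.031, did not. Grin2b, an NMDA receptor subunit, has the longest of the 390 intervals, 18876 bases (chr6:135713221-135732096, minus strand). Its rates were 0.0152%, 0.026% and 0.0339% with 4sU and 0.0138%, 0.0208% and 0.0284% with DMSO, and its excess was 0.00264 percentage points. The 95% counting interval of that excess was 0.000204 to 0.00508. Grin2a had an excess of -0.00356. Gria1 (chr11:57327647-57330243, plus strand) stood out by its high background, with 0.0364%, 0.0476% and 0.0824% in 4sU libraries and 0.031%, 0.0438% and 0.0602% in DMSO libraries, one of 11 intervals with a DMSO rate above 0.04%. Its excess was 0.00386, with a counting interval of 0.000249 to 0.00746. Likewise 3 of 4 calcium channel genes (Cacna1c, Cacna1e and Cacnb4) and 3 of 6 phosphodiesterases (Pde10a, Pde4b and Pde7b) had an interval without excess. Of 7 GABA-A receptor genes 2 did (Gabra4 and Gabrb1), and of 35 solute carriers 11 did. Of 6 voltage-gated sodium channel subunits 1 did (Scn3b; median excess of the 6 genes 0.0215), and of 14 potassium channel genes 3 did (Kcna6, Kcnab1 and Kcnip2; median 0.011). Ppp1r1b, the striatal phosphatase inhibitor DARPP-32, has the shortest of the 390 intervals (725 bases) and an excess of 0.00405.

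Other gene lists held no such gene or nearly none. None of 20 abundant genes on the synaptic vesicle and release list had an interval without excess, and their median excess was 0.0627 percentage points. That list is not complete. Bsn, of the presynaptic active zone, and Syt4, a synaptotagmin with an excess of 0.00127, are outside it and had such an interval. Of 6 abundant synaptotagmin genes 1 did, Syt4, with a median of 0.0399 over the 6. None of 11 astrocyte genes (median 0.106), 12 ion pump and vacuolar ATPase genes (0.0814), 14 lysosome and secretory genes (0.09), 9 genes of glycolysis and the citrate cycle (0.0545), 15 cytoskeleton genes (0.0364), 6 14-3-3 genes (0.0699) or 3 calmodulin genes (0.0596) had one. Of 11 oligodendrocyte and myelin genes 1 did, Ermn, a cytoskeletal protein of myelinating cells, with 0.00179 against a list median of 0.0402. Over all 1382 abundant genes the median excess was 0.0146. Microglia, blood, ribosomal protein and nuclear noncoding RNA lists had no abundant gene, so these groups could not enter the set.

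**Figure D4:**
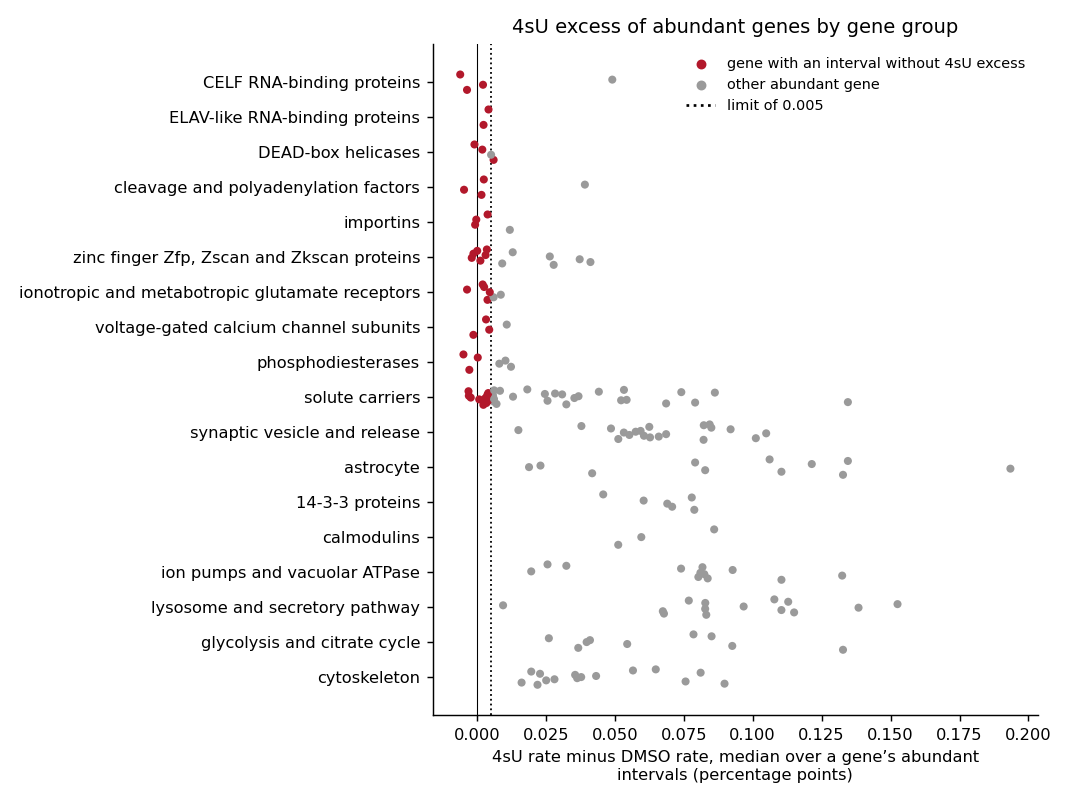
Excess of the 4sU rate over the DMSO rate (horizontal axis, percentage points, median over the abundant intervals of a gene) for abundant genes in 18 gene groups; each point is a gene, red where the gene has an interval without 4sU excess, and the dotted line marks 0.005. CELF genes other than Celf4, ELAV-like, DEAD-box, importin and glutamate receptor genes lie at or below 0.0120, while synaptic vesicle, astrocyte, 14-3-3, ion pump and lysosome genes lie mostly above 0.015.

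The intervals were longer and more thinly read per base than the other abundant ones. Their median length was 3386 bases, against 2596 in the other abundant intervals and 904 in all covered intervals. Read density, the deposited CPM per kilobase of interval, had a median of 11.8, against 21.1 in the other abundant intervals. T content did not differ in the median (30.3% in both). In 4 equal classes of length, from shortest to longest, 8%, 25.4%, 28.9% and 34.9% of the abundant intervals were without excess. Over the 1604 abundant intervals the excess had a Spearman correlation of -0.42 with length, 0.56 with reads per kilobase and -0.08 with T content; points share libraries and overlapping intervals, and the depth limit admits long intervals at low read density, so these are descriptions. The intervals lie on 20 chromosomes, 190 on the plus strand and 200 on the minus strand. They make up 40 of 155 abundant intervals on chromosome 11 and 3 of 54 on chromosome X.

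After acute stress exon counts of 8 of the 343 genes, or 2.33%, rose and those of none fell. The background over all 15995 genes tested was 1.48% higher and 0.913% lower (edgeR quasi-likelihood test, two-sided, Benjamini-Hochberg adjusted p under 0.05, average of both injection arms). The 343 genes had passed the depth limit and the 15995 only a filter on low counts, so the shares were not matched for depth. Of the 343 genes, 178 had a log2 fold change above 0, and their median was 0.0028, against 0.0117 over all genes. This comparison did not choose the intervals, and within each arm acute and baseline libraries belong to the same header series.

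The largest rise was that of Sgk1, a kinase whose transcription is induced by corticosteroids. A window of its promoters is shown because it holds, on RefSeq's GRCm38.p6 coordinates, the only match to the glucocorticoid response element (GNACA and TGTNC with 3 bases between them, searched on both strands) in the promoters of these genes. Promoters ran from 250 bases before to 50 bases after a start site, and 260 of the 343 genes had one or more, 384 in all. The window lies at chr10:21993694-21993723 on the plus strand, with the match in capitals starting 188 bases before the start site:

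Sgk1 promoter window: tgcggaaaGAACAGAATGTTCtcggagatt

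The motif occurs in 0.475% of all 32851 promoters and in 0.26% of the 384. The cAMP response element TGACGTCA occurs in 1.79% of all and in 2.6% of the 384, including those of Braf, Fscn1 and Prkcz, and the E-box CACGTG in 7.15% and 8.07%. A match is a description of letters, not of binding.

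Sgk1 had 284, 295, 275, 281 and 286 exon CPM (exon counts scaled to the library's total) in acute 4sU mice, against 93.55, 88.1, 122, 96.2 and 82.9 in baseline 4sU mice. In DMSO mice it had 382, 500.0, 656, 501 and 403 CPM after acute stress, against 87.0, 72.5, 137 and 295 at baseline. Every acute library stood above every baseline library of its arm, and baseline DMSO replicate 4, at 295, was the highest of its group. The log2 fold change was 1.68 ± 0.20 (SE; adjusted p = 6.0e-05). Its 3′ UTR interval (chr10:21998828-21999901, plus strand) had 176 conversions in 700304 covered T positions with 4sU and 214 in 1006014 with DMSO. The 4sU rate of that interval was 0.0244% after acute stress, 0.0293% after chronic stress and 0.0204% at baseline. Its single libraries ranged from 0.0098% to 0.0441% with 4sU and from 0.0046% to 0.0369% with DMSO, and no change of its rate with stress was called.

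Klf9, a transcription factor induced by glucocorticoids, had 251, 220, 228, 300.1 and 226 CPM in acute 4sU mice, against 200.2, 168, 181, 160.1 and 179.7 in baseline 4sU mice. In DMSO mice it had 418, 234, 381, 411 and 316 CPM after acute stress, against 248, 207, 244 and 328 at baseline, with overlap. The log2 fold change was 0.50 ± 0.11 (SE; adjusted p = 0.0125). Its interval had an excess of -8.63e-05 percentage points. Of the 3 abundant genes of the glucocorticoid-responsive list, Sgk1 and Klf9 had an interval without excess and Glul, at 0.0231, did not.

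Rhob, a stress-inducible small GTPase, had 494, 509, 541, 556 and 533 CPM in acute 4sU mice, against 419, 413, 453, 431 and 402 in baseline 4sU mice. In DMSO mice it had 430, 540, 390, 421 and 362 CPM after acute stress, against 316, 321, 339 and 355 at baseline. The groups did not overlap in either arm, and the log2 fold change was 0.38 ± 0.064 (SE; adjusted p = 0.00175). Adipor2, a receptor of adiponectin, averaged 102 ± 6.8 and 73.4 ± 5.4 CPM in acute and baseline 4sU mice (SD, n = 5 each), and 161 ± 45 and 99.9 ± 15 CPM in acute and baseline DMSO mice (SD, n = 5 and 4); its log2 fold change was 0.62 (adjusted p = 0.00148).

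Olig1, a transcription factor of the oligodendrocyte lineage, averaged 230 ± 5.3 and 200.2 ± 22 CPM in acute and baseline 4sU mice and 235 ± 56 and 156 ± 8.2 CPM in acute and baseline DMSO mice. It rose by 0.44 on the log2 scale (adjusted p = 0.00734). The mean level of 18 oligodendrocyte and myelin markers, none at 0 in all libraries, was 7.495 to 7.74 in acute and 7.31 to 7.87 in baseline 4sU mice, and 8.59 to 9.27 in acute and 8.24 to 8.69 in baseline DMSO mice, as log2(CPM + 1); its part in the result was not tested. The last 3 genes had smaller changes. Srxn1, which repairs oxidised peroxiredoxins, rose by 0.25 on the log2 scale (adjusted p = 0.0111), and Mat2a, which makes the methyl donor S-adenosylmethionine, by 0.22 (adjusted p = 0.00891). Serinc5, a multipass membrane protein, rose by 0.30 (adjusted p = 0.0405), a call lost in 14 of 19 fits that left out 1 library. With reads of the 3′ UTR intervals in place of exon counts, Srxn1 (adjusted p = 0.0512), Mat2a (adjusted p = 0.0706) and Serinc5 (adjusted p = 0.149) missed the threshold.

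**Figure D5:**
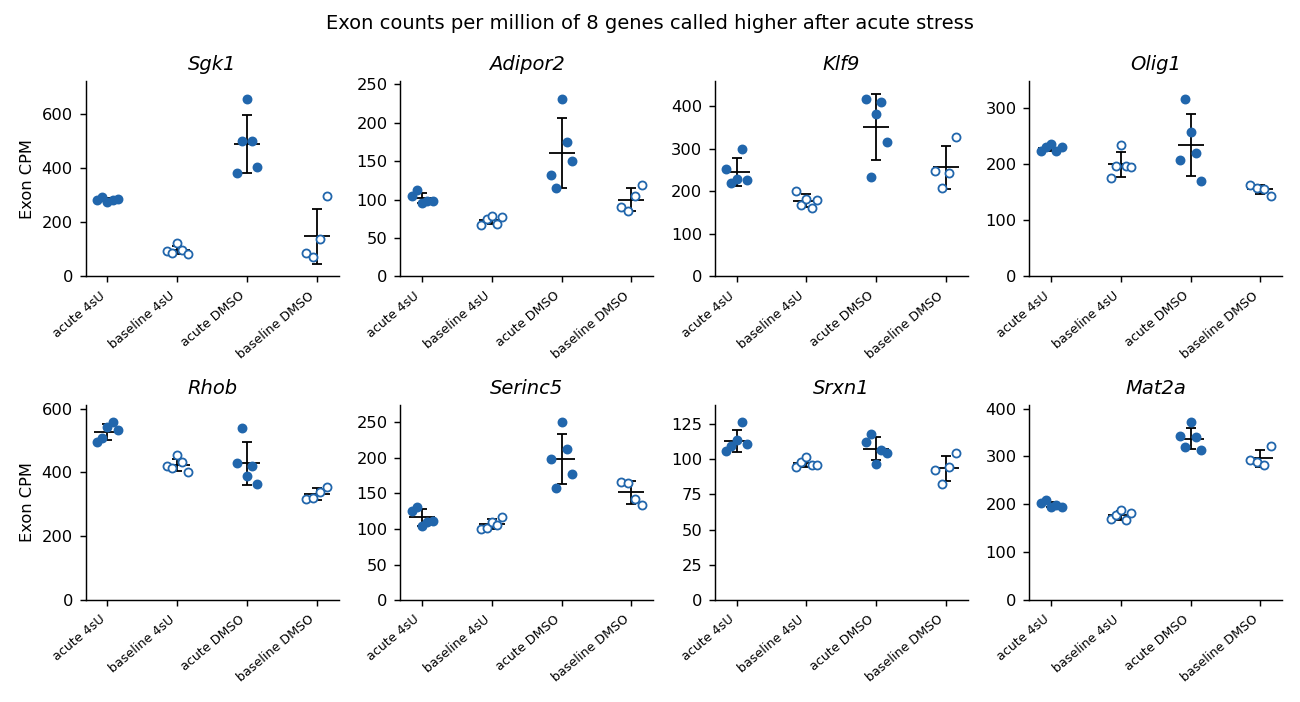
Exon CPM (vertical axes, starting at 0) of the 8 genes called higher after acute stress; points are libraries (filled acute, open baseline), lines the group mean and bars the SD. Sgk1 shows the largest change, at 275 to 656 CPM in acute libraries against 72.5 to 295 in baseline libraries, and the groups of Serinc5 overlap in both arms.

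The count of called genes depended on the libraries used. Without acute DMSO replicate 1, 12 of the 343 genes were called, and without replicate 5, 10 were, 2 of them lower. The calls over all genes also moved, from 249 to 787 among the fits that left out 1 library. Among fits that left out 1 library, the one without acute DMSO replicate 2 changed the count most. Without acute DMSO replicate 2, 24 of the 343 genes rose and none fell, all 8 among them; over all genes 510 rose and 277 fell in that fit. That library also had the highest share of its reads inside the annotated intervals, 23.9%, where the other acute DMSO libraries had 18.5% to 19.0%, and the lowest share of interval reads in the 390 intervals, 7.49%, against 9.6% to 11.0%. The libraries of this comparison low in glutamatergic markers were acute DMSO replicates 1, 3 and 4. Without them, 9 of the 343 genes rose and 20 fell, where 611 rose and 501 fell over all genes. Acute DMSO mice were then represented only by replicates 2 and 5, so these counts rest on few libraries. Of the 8 genes, 6 were still called in that fit. Klf9 (edgeR adjusted p = 0.0641) and Serinc5 (edgeR adjusted p = 0.115) were not. Acute DMSO mice had a glutamatergic marker level of 3.76 to 6.07, against 5.47 to 5.76 in baseline DMSO mice; in 4sU mice it was 5.79 to 6.26, against 5.82 to 6.15.

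After chronic stress none of the 343 genes was called in DMSO mice. Nor was any of 16096 genes over the whole table, 0%. At an unadjusted p under 0.05 edgeR gave 19 of the 343 and 913 of all genes, shares of 5.54% and 5.67%, and DESeq2 called 0 of the 343 and 11 of all.

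In 4sU mice, chronic against baseline libraries called 134 of the 343 genes higher and 95 lower, shares of 39.1% and 27.7%. Over all 16096 genes the shares were 26.9% higher and 29.6% lower, and the median log2 fold change was 0.0485 in the 343 genes and -0.0234 over all. Here too the shares were not matched for depth. With reads of 3′ UTR intervals in place of exon counts, 110 of the 343 were higher and 116 lower, so the lean to higher calls was not seen there; over all genes 3740 were higher and 3338 lower. This comparison crosses the header series. Its largest rise was Ermn, with 286, 249, 215 and 269 CPM in chronic 4sU mice, against 68.9, 91.7, 104, 77.8 and 89.9 in baseline 4sU mice (log2 fold change 1.48 ± 0.10, SE; adjusted p = 6.41e-09). Baseline DMSO mice, numbered in the same series as chronic 4sU mice, had 187 to 236 CPM, and acute 4sU mice, numbered with baseline 4sU mice, had 69.3 to 87.1. The chronic 4sU values of Ermn thus lay near those of baseline DMSO libraries, and state and header series cannot be told apart. Oligodendrocyte markers moved alike, at 8.70 to 8.996 in chronic 4sU mice against 7.31 to 7.87 in baseline 4sU mice, and 8.24 to 8.69 in baseline DMSO mice. Ermn is itself one of these 18 markers, so its level is part of that mean.

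The next rises had the same arrangement. Slc12a2, the sodium-potassium-chloride cotransporter NKCC1, averaged 249 ± 21 and 114 ± 11 CPM in chronic and baseline 4sU mice, and 230 ± 14 CPM in baseline DMSO mice. Fut9, a fucosyltransferase that makes the Lewis X glycan, averaged 149 ± 9.97 and 70.4 ± 5.7 CPM in chronic and baseline 4sU mice, and 139 ± 11 CPM in baseline DMSO mice. Scai, a repressor of serum response factor signalling, and Zdhhc20, a palmitoyltransferase, had log2 fold changes of 0.99 each. Among the falls, Crtc1, a coactivator of CREB, averaged 159 ± 12 and 297 ± 13 CPM in chronic and baseline 4sU mice, and 178 ± 8.7 CPM in baseline DMSO mice (log2 fold change -0.98; adjusted p = 1.8e-10). Baiap2, an actin regulator of dendritic spines, had a log2 fold change of -0.96, Bsn, a scaffold of the presynaptic active zone, -0.90, and Ttyh3, a membrane protein of the tweety family, -0.84.

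Adcy5, the adenylate cyclase of striatal neurons, fell by 0.82 on the log2 scale (adjusted p = 0.0362), a call lost in 5 of 9 fits that left out 1 library. It varied widely inside groups, with 251.5, 347, 809 and 637 CPM in chronic 4sU mice, against 942, 803, 1056, 626 and 846 in baseline 4sU mice. Pde10a varied with it, at 133, 272, 800.2 and 651 CPM in chronic 4sU mice, against 683, 511, 669, 312 and 570 in baseline 4sU mice. The lowest chronic library was the same for both genes. Both genes are known as markers of striatal neurons, and the part of such neurons in other results was not tested.

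None of the 390 intervals was called for a change of conversion rate with stress, taken relative to the library's overall rate. That overall rate includes label, at 0.0486% to 0.0778% in chronic and 0.0422% to 0.0546% in baseline 4sU libraries. On this scale the median log2 fold change of the 390, chronic against baseline 4sU, was -0.21, with 115 above 0. Their summed rate, not rescaled, averaged 0.0285% and 0.0256%. The rule used the rates of these same libraries summed over states, so an interval raised strongly in 1 state would tend not to be among the 390. For acute against baseline 4sU mice edgeR called 0 of 390 and 0% of 9711 intervals tested (13 and 564 at an unadjusted p under 0.05), and DESeq2 called 0 of either. For chronic against baseline 4sU mice it called 0 of 390, against 0.237% of 9711 intervals (14 and 723 at an unadjusted p under 0.05), and DESeq2 called 0 and 19. In DMSO mice, where conversions are background, it called 0 of 390 and 0% of 10070 intervals for acute and for chronic stress, with 20 and 14 of the 390 at an unadjusted p under 0.05, and DESeq2 called 0. Each of these tests rested on few conversions, a median of 210 per interval over all 14 4sU libraries, and the absence of calls does not show that rates were equal between states.

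In auditory cortex, where no conversion table was used, transcript counts summed per gene allowed 299 of the 343 genes to be compared between tissue with and without 4sU. None was called, nor were any of 10627 genes, 0% (edgeR, with 8 and 441 at an unadjusted p under 0.05, while DESeq2 called 0 and 7). With 3 libraries on each side, the absence of calls does not show that levels were equal. The median log2 fold change was 0.0214 in the 299 genes and 0.0041 over all. Without the filter on low counts 48 genes were called, among them 1 of the 343, Slc5a3, a sodium-coupled inositol transporter, with a log2 fold change of 0.75 ± 0.17 (SE; edgeR adjusted p = 0.00699, against 0.69 with the filter); it is named after its value was seen.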

How the data were processed

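For each amygdala library slamdunk (version 0.4.3, per the file headers) gave counts of covered T positions, T-to-C conversions and reads in RefSeq 3′ UTR intervals, and a CPM column that scales reads to the library. The authors also deposited exon counts per gene and, for cortex, counts per transcript, all unnormalized. Of the tools in the submitters' processing notes (featureCounts 2.0.1, HISAT2 2.1.0, SAMtools 1.9, cutadapt 3.1; build mm10) no roles are stated. No source used here gives the strand, multiple-match, base quality or variant settings, so overlapping genes, paralogues and genomic variants can affect counts and rates.

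Symbols came from RefSeq accessions (23890 of 23996 intervals; 3 of the 343 genes by a synonym). Of 142552 cortex transcripts 90350, with 79.8% of counts, were matched by a 50% exon overlap. Rates were summed conversions over summed covered T positions, with 95% normal intervals from counting error only. Tests used edgeR 4.0.16 (TMM, filterByExpr, robust quasi-likelihood, R 4.3.3) on whole tables, with DESeq2 1.42.0 as an alternative; conversion tests used covered T times the library's overall rate as exposure, in intervals with a mean of 2000 or more covered T. Scripts were tested on simulated data. Tables used Python 3.11.15 and pandas 2.3.3.

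The intervals, gene lists, families, motifs and named genes were chosen with earlier results of these data known. Named genes are the deepest, the lowest in excess, those nearest the limit, list members and, per test, the 5 largest rises and 5 largest falls. Serinc5, Srxn1 and Mat2a complete the acute calls, and they, Ntrk2, Slc5a3 and the genes of families and motifs were named after their values were seen. Genes with a library standing apart are counted rather than named, except among genes named for another reason.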

Additional observations from a re-analysis of the deposited data

Results flagged for a closer look

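Of 135 sets of 4 or 5 libraries examined for a library far from the rest, 6 had one, and chance gives about 1 in 20. Acute DMSO replicate 2 had 23.9% of its reads inside the annotated intervals, where the other acute DMSO libraries had 18.5% to 19.0%. Bsn had 504 CPM in acute 4sU replicate 1, against 441 to 458 in the other acute 4sU libraries, and 369 CPM in baseline 4sU replicate 3, against 482 to 496 in the other baseline 4sU libraries. In baseline DMSO replicate 4, Adcy5 had 743 CPM, against 538 to 571 in the other baseline DMSO libraries, and Pde10a had 943 CPM, against 548 to 616. Gria1 had 800.0 CPM in acute DMSO replicate 5, against 457 to 554 in the other acute DMSO libraries. Over all 343 genes, 132 of 1715 such sets had a library standing apart, 7.7%.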

How the results depend on the processing

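The number of intervals chosen depended on the limits: 102 with an excess below 0, 644 below 0.01 percentage points, 1090 at 250000 covered T positions or more and 97 at 1000000 or more. It was 387 and 392 with a stricter and no DMSO limit, 388 with the mean of library rates, and 321 to 387 with 1 library left out. Chosen after seeing the data, the 4sU rate from chronic libraries alone gave 284 intervals (232 shared) and from baseline and acute libraries alone 472 (365 shared). For acute stress DESeq2 called 667 genes, 15 of the 343 (8 shared), and reads of 3′ UTR intervals 188, with 5; leaving out the libraries low in glutamatergic markers, also chosen after seeing the data, gave 1112, with 29. With 1 library left out the acute calls ranged from 249 (without baseline DMSO replicate 1; 253 without replicate 2) to 787 (without acute DMSO replicate 2) over all genes and from 7 to 24 among the 343. For chronic DMSO mice DESeq2 called 11 genes, and with 1 library left out edgeR called 0 to 1 (1 without baseline DMSO replicate 3 or chronic DMSO replicate 3). For chronic 4sU mice leave-one-out gave 8593 to 8858 calls, 215 to 226 among the 343; reads of 3′ UTR intervals called 110 of the 343 higher and 116 lower. Conversion calls for chronic 4sU mice numbered 15 with the replicate block, 13 at 20000 covered T or more and 10 to 22 with 1 library left out (10 without chronic 4sU replicate 2 and 12 without replicate 3); without rescaling, 26 were higher and 2 lower, against 11 and 12, since the libraries' overall rates differ. Leave-one-out gave 0 to 2 calls for acute 4sU and for chronic DMSO conversion; chronic DMSO gave 2 without rescaling and acute DMSO 1 without the low-marker libraries. In cortex DESeq2 called 7 genes, no filter 48, 1 of them among the 343, and leave-one-out 0 to 5 (2 without 4sU replicate 2, 5 without replicate 1 of the group without 4sU). Replicate numbers did not pair the samples (correlations of deviations -0.26 to 0.28); with the replicate block acute calls were 342, 7 of the 343, and chronic 4sU calls 8523, 211 of the 343. No named gene changed direction in any of these fits; of 242 fits with 1 library left out 19 lost a call, and of the 100 other fits 11 did. The causes were not tested.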
